A study of Mus musculus with 19 samples.

Results

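A set of 40 genes of synaptic vesicle release and recycling was followed in the ribosome-bound mRNA of the spiny projection neurons of the mouse striatum. The genes were listed by name, from the calcium sensors that trigger fusion to the enzymes that retrieve the vesicle membrane, and each symbol was matched to 1 Ensembl gene. The list was drawn up with earlier results of these data known. All 40 members passed the filter on low counts, among 13926 genes tested of 39017 in the tables. The groups were old D1, young D1, old D2 and young D2 neurons, with 4 libraries each, from female mice of 2 years (old) or 42 days (young). D1 neurons came from mice of the strain Drd1::EGFP-L10a and D2 neurons from mice of the strain Drd2::EGFP-L10a, both on the background written C56BL/6J in the labels. In all groups the ribosomal protein L10a carried the fluorescent tag EGFP, so that tagged ribosomes and their mRNA could be pulled down (translating ribosome affinity purification, TRAP). As the strain names state it, the Drd1 or Drd2 gene drives the tag, so any other cell in which that driver is active contributes too. A further 3 samples of NIH-3T3 fibroblasts are not analysed here.

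A synaptic vesicle is filled with transmitter, held near the active zone by scaffold proteins and small Rab3 GTPases, and made ready for fusion by Munc13 (Unc13) and RIM proteins. Fusion is driven by SNARE proteins on the vesicle (synaptobrevins, the Vamp genes) and on the cell membrane (syntaxin and SNAP-25), with complexins holding the complex and synaptotagmins sensing calcium. The ATPase NSF and its SNAP adaptors take spent SNARE complexes apart, and dynamin, amphiphysin, endophilin and synaptojanin bring the membrane back. Spiny projection neurons release GABA from axons that leave the striatum, while TRAP reads mRNA on ribosomes within the dissected striatum.

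Summed expected counts ran between 27484038 and 70903004 per library. The old D1 group differed from the rest in its libraries: 10369 to 13705 genes had a count there and 12783 to 15000 in the remaining libraries, and fragments averaged 151 to 164 bases in old D1 and 170 to 195 bases in the others. The entry Gm42418 took 5.14 to 6.84% of all TPM (transcript abundance scaled to a fixed total per library) in old D1 libraries, 11.1 to 19.2% in young D1, 13.2 to 18.2% in old D2 and 11.8 to 17.2% in young D2. Summed over 6 D1 markers (Drd1, Tac1, Pdyn, Chrm4, Eya1 and Isl1), the libraries held 4597 to 7381 TPM in old D1, 2459 to 3229 TPM in young D1, 411 to 656 TPM in old D2 and 133 to 154 TPM in young D2. Of 6 D2 markers 5 were matched (Drd2, Penk, Adora2a, Gpr6 and Sp9), and they summed to 112 to 551 TPM in old D1 and 108 to 223 TPM in young D1, against 5455 to 11479 TPM in old D2 and 7615 to 8849 TPM in young D2. The labelled neuron types therefore carried their own markers. The 8 markers of all spiny projection neurons summed to 5945 to 7280 TPM in old D1 and 6648 to 9057 TPM in young D1, and 1 was called higher and 2 lower in old D1. Gad2, a GABA-synthesising enzyme, averaged 2525 TPM in old D1 and 897 TPM in young D1, Ppp1r1b 1764 TPM in old D1 and 3766 TPM in young D1, and Gng7 555 TPM in old D1 and 1764 TPM in young D1. Markers of GABAergic interneurons, which have vesicle genes of their own, summed to 31.6 to 546 TPM in old D1 and 62.1 to 143 TPM in young D1, and 1 of the 6 tested, Nos1, was called higher in old D1. In D2 these interneuron markers summed to 13.6 to 92.8 TPM in old and 7.62 to 70.05 TPM in young. Those of glutamatergic neurons summed to 0.09 to 139 TPM in old D1 and 1.47 to 18.6 TPM in young D1. Of the cholinergic interneuron markers, Slc5a7 averaged 0.465 TPM in old D1, 0.86 in young D1, 9.12 in old D2 and 5.66 in young D2. Isl1, also listed as a D1 marker, averaged 74.65, 48.8, 11.2 and 2.545 TPM in the same order. The 6 oligodendrocyte markers summed to 75.6 to 190.5 TPM in old D1 and 127 to 289.7 TPM in young D1. In D2 they summed to 247 to 353 TPM in old and 158 to 267 TPM in young, so that old D1 lay below old D2. The 6 astrocyte markers summed to 20.9 to 57.9 TPM in old D1 and 18.4 to 84.7 TPM in young D1. All 3 ependymal markers were at 0 in old D1, and they summed to at most 0.23 TPM in young D1. The part of these differences in the results below was not tested. Within each kind of neuron the library barcodes in the labels ended differently in old and young, so that anything shared by a barcode set and age cannot be told apart.

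Snap25, the SNARE of the cell membrane, stood far above every other member, at a mean of 13638 TPM over the 16 libraries. Next came Vamp2 (synaptobrevin 2) at 1648 TPM and the complexin gene Cplx2 at 1225 TPM, then Rab3a at 619 TPM and Cplx1 at 556 TPM. The lowest were Unc13b at 5.89, Rimbp2 at 9.15, Rims3 at 11.2 and Pclo at 14.5 TPM. Neighbours in this order could overlap: in young D2 the values of Rab3a (643 to 773 TPM) and Cplx1 (419.9 to 672 TPM) did. The summed TPM of the 40 members was 32910 ± 1563 in old D1, 17686 ± 3121 in young D1, 20083 ± 2540 in old D2 and 17794 ± 1948 in young D2 (SD, n = 4 each). Snap25 made up 69.5% of that sum in old D1 and 54.7% in young D1, 57.4% in old D2 and 57.5% in young D2. Without Snap25 the sums were 10032 ± 660 TPM in old D1, 7878 ± 453 in young D1, 8488 ± 415 in old D2 and 7525 ± 474 in young D2. The median coefficient of variation of the members between libraries was 42.5% in old D1, 28.2% in young D1, 23.4% in old D2 and 19.9% in young D2, against 80.8, 51.5, 44.3 and 42.8% over all genes tested.

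**Figure D1:**
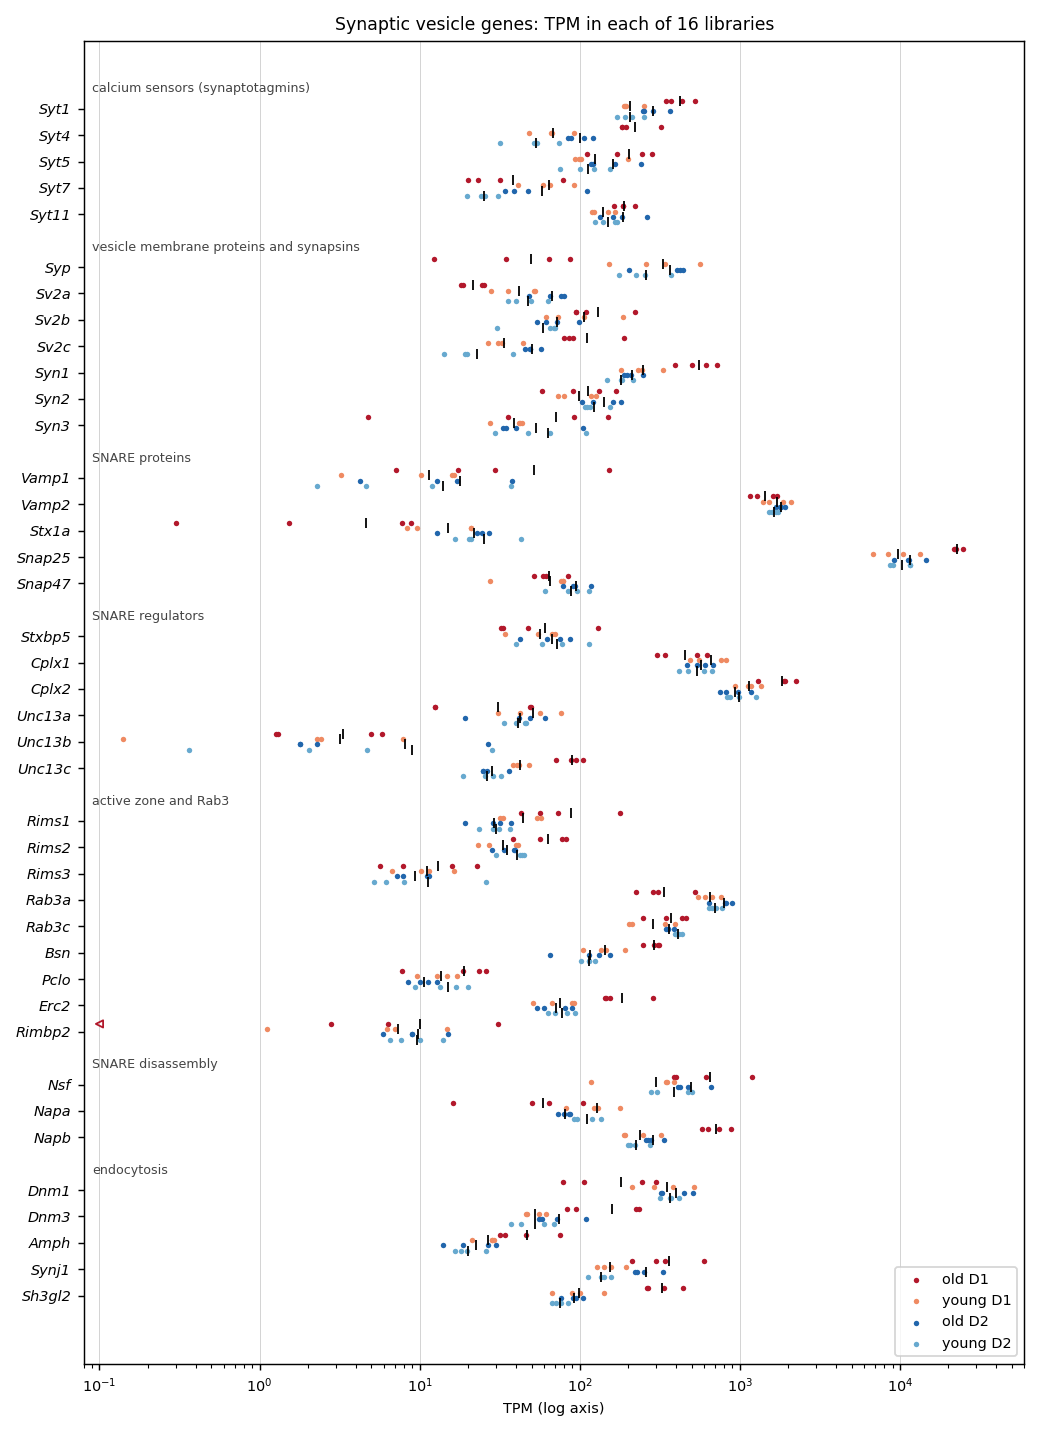
TPM of each of the 40 members (rows, grouped by role) in each of the 16 libraries, on a log axis. Points are libraries, black ticks are group means, and the open triangle at the left marks the old D1 library in which Rimbp2 was at 0. Snap25 lies alone at the right, and the old D1 points lie apart from the other 12 in 13 members, such as Snap25 and Syp.

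The main comparison asked how the ribosome-bound mRNA of these genes differed between old and young neurons of each kind. In D1 neurons 18 of 40 members passed the test (45.0%), 15 higher and 3 lower in old than in young, where 10.8% of all genes tested passed (5.39% higher and 5.44% lower). As the members were listed with earlier results of these data known, this share does not test the pathway. Of 89 other vesicle genes tested, described below, 14.6% passed, 6 higher and 7 lower. The test was edgeR's quasi-likelihood test on the authors' estimated counts, with p-values adjusted over all 13926 genes, and its log2 fold changes are given with their standard error (SE). Among genes with a mean of at least 20 TPM, 19.5% passed, and 18 of the 35 members at that level did. Voom with library weights called 392 genes higher and 155 lower, against 750 and 758 by edgeR. DESeq2 called 24 members, 16 higher and 8 lower: it added Rims1 as higher and Stx1a, Cplx1, Unc13a, Napa and Dnm1 as lower. Fitted on the 8 D1 libraries alone, edgeR called 10 members, and Syt1, Sv2a, Cplx2, Rims2, Rab3a, Bsn, Erc2 and Nsf were lost (adjusted p of 0.0509 for Syt1, 0.0602 for Erc2 and 0.125 for Rab3a). Rab3a was also lost without young D1 replicate 4. The median log2 change was 0.50 over the 40 members and -0.06 over all genes. The 4 old and 4 young D1 values did not overlap in 17 members, against 13.8% of all genes tested. Fewer cells of a type and less RNA per cell cannot be told apart in such libraries. In 13 members all 4 old D1 libraries lay outside the range of the other 12 libraries, 10 above and 3 below, where 6.1% of all genes tested did so.

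In D2 neurons no member passed, and 0.079% of all genes tested did. By edgeR, 5 members had an unadjusted p under 0.05, and the lowest adjusted p was 0.0879, for the phosphatase gene Synj1. DESeq2 called 1 member, Synj1, which was higher in old D2. The old and young D2 values did not overlap in 6 members (Syt4, Syt7, Sv2c, Rab3c, Napa and Synj1), against 7.07% of all genes. The median log2 change of the members was 0.10, against 0.01 over all genes.

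The age changes of the 2 kinds of neuron were then compared directly. Their difference, D1 minus D2, passed for 5 members, where 1.77% of all genes tested did: Snap25, Napb, Sh3gl2 and Erc2 changed more upwards in D1, and Syp more downwards. These 5 calls all ended when a trend over GC content and length was removed from each library (edgeR adjusted p of 0.0676 to 0.12), and Syn1 and Bsn passed in their place. The differences then were 1.31 for Sh3gl2, 1.21 for Erc2, 0.82 for Napb, 0.62 for Snap25 and -2.69 for Syp on the log2 scale.

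Neuron types were compared within each age as well. D1 against D2 gave no call among the members in young mice, where 0.409% of all genes tested passed. By edgeR the lowest adjusted p was 0.188, for Unc13c, with 6 members at an unadjusted p under 0.05, and DESeq2 called 1 member, Unc13c, higher in D1. In old mice 19 of 40 members passed, 15 higher and 4 lower in D1, where 9.6% of all genes tested did (5.02% higher and 4.58% lower). This comparison uses the same old D1 libraries as the comparison of ages in D1, so the values of both, given below for members called in both, are not independent.

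**Figure D2:**
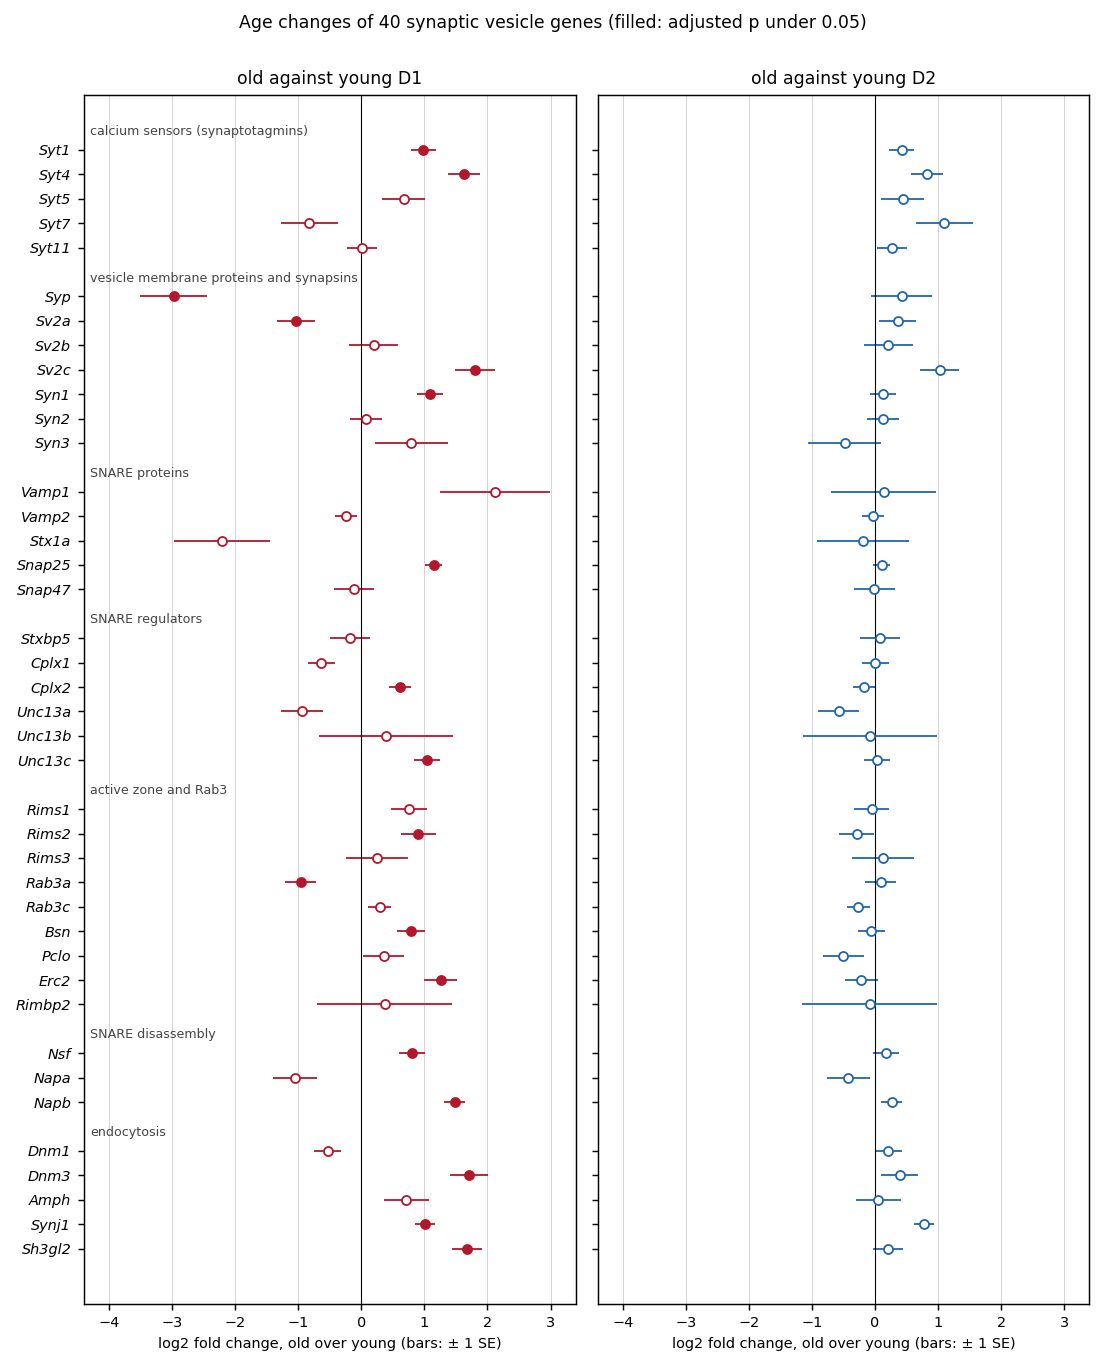
Log2 fold change of old over young for the 40 members in D1 neurons (left) and D2 neurons (right), with bars of ± 1 SE, where filled points passed at an adjusted p under 0.05. Filled points are found in D1 only, 15 to the right of 0 and 3 to the left, and in D2 the point nearest to a call is Synj1.

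Among the calcium sensors, Syt1 and Syt4 passed in D1 and Syt5, Syt7 and Syt11 did not. Syt1, the sensor of fast synchronous release, had 374, 438, 348 and 526 TPM in old D1 libraries and 192, 188, 251 and 195 TPM in young D1, against 364, 248, 287 and 253 TPM in old D2 and 192, 212, 171 and 251 TPM in young D2. All old D1 values were above all young D1 values, while old and young D2 overlapped. Its log2 change was 0.98 (SE 0.20, edgeR adjusted p = 0.00436) in D1, which ended at an adjusted p of 0.0687 after removal of the GC and length trend, and 0.42 (edgeR adjusted p = 0.857) in D2. Old D1 against old D2 gave 0.69 (SE 0.20, edgeR adjusted p = 0.0348), a call lost in 13 of 23 alternative settings.

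Syt4, which does not sense calcium in the way Syt1 does and is found on dense-core vesicles, had 194, 323, 183 and 183 TPM in old D1 libraries and 66.6, 66.7, 91.6 and 48.1 TPM in young D1, against 122, 87.7, 84.7 and 107 TPM in old D2 and 31.9, 54.5, 52.0 and 74.5 TPM in young D2. Old D1 was above the other 12 libraries, and old D2 was above young D2. The log2 change was 1.62 (SE 0.26, edgeR adjusted p = 0.000591) in D1 and 0.83 (SE 0.25, edgeR adjusted p = 0.488) in D2. Old D1 stood above old D2 by 1.26 on the log2 scale (SE 0.25, edgeR adjusted p = 0.0040). Syt7, a slower sensor with high calcium affinity, averaged 38.3 ± 27.3 TPM in old D1 and 64.6 ± 21.2 TPM in young D1, against 57.7 ± 35.7 in old D2 and 25.1 ± 4.63 in young D2 (SD, n = 4 each), and its log2 change of -0.82 in D1 and 1.10 in D2 did not pass in either kind. With the GC and length trend removed the D1 value was 0.39, and without old D1 replicate 4 it was called lower.

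Among the proteins of the vesicle membrane and the synapsins, 2 of 7 members rose in old D1 neurons and 2 fell. Synaptophysin (Syp), an abundant vesicle membrane protein and common marker of synapses, gave the largest change of any member that passed. The gene (ENSMUSG00000031144, chrX:7638471-7653256, plus strand, GRCm38) had 12.4, 34.6, 86.4 and 64.6 TPM in old D1 libraries and 261, 341, 153 and 562 TPM in young D1, against 403, 424, 442 and 202 TPM in old D2 and 226, 373, 257 and 176 TPM in young D2. The old D1 values lay below all other 12. The log2 change in D1 was -2.98 (SE 0.53, edgeR adjusted p = 0.0014), old D1 against old D2 gave -2.91 (SE 0.52, edgeR adjusted p = 0.00184), and both calls held in all 23 alternative settings. The difference of the age changes was -3.40 (SE 0.71, edgeR adjusted p = 0.0211), which was -2.69 with an adjusted p of 0.0698 when the GC and length trend was taken out, and the call ended there and also without young D2 replicate 4 or old D2 replicate 2.

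Of the 3 genes of the SV2 transporter-like vesicle proteins, 1 rose and 1 fell in old D1. Sv2c, the member of the family best known from the basal ganglia, had 91.2, 189.8, 80.3 and 85.8 TPM in old D1 libraries and 32.8, 26.7, 30.7 and 44.1 TPM in young D1, against 57.0, 49.2, 45.5 and 49.1 TPM in old D2 and 19.6, 38.3, 14.2 and 19.2 TPM in young D2. Old was above young without overlap in both kinds. The log2 change was 1.80 (SE 0.32, edgeR adjusted p = 0.00138) in D1 and 1.02 (SE 0.31, edgeR adjusted p = 0.488) in D2, where voom with library weights did call it. Old D1 against old D2 gave 1.30 (SE 0.31, edgeR adjusted p = 0.0133), lost in 3 of 23 alternative settings, among them without old D1 replicate 2.

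Sv2a, the widespread form and target of the antiepileptic levetiracetam, had 18.0, 18.6, 25.2 and 24.7 TPM in old D1 libraries and 52.1, 35.5, 27.7 and 52.4 TPM in young D1, against 48.2, 65.1, 79.8 and 75.9 TPM in old D2 and 63.0, 35.9, 49.9 and 40.3 TPM in young D2. Old D1 was below all other libraries. Sv2a fell by 1.04 on the log2 scale in D1 (SE 0.30, edgeR adjusted p = 0.0312), a call lost in 8 of 23 alternative settings (log2 -0.67, adjusted p of 0.186 after removal of the GC and length trend), and old D1 against old D2 gave -1.44 (SE 0.30, edgeR adjusted p = 0.00543), which held in all of them. Sv2b averaged 129.7 ± 60.6 TPM in old D1 and 106 ± 55.8 TPM in young D1 and did not pass.

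Synapsins tether vesicles to each other and to the cytoskeleton. Syn1 had 617, 718, 394 and 502 TPM in old D1 libraries and 231, 181, 331 and 243 TPM in young D1, against 197, 210.4, 189.6 and 248 TPM in old D2 and 181, 184, 147 and 216 TPM in young D2. Old D1 was above the other 12 libraries, and the 2 D2 groups overlapped. The log2 change in D1 was 1.10 (SE 0.21, edgeR adjusted p = 0.0022) and became 1.90 (adjusted p = 0.000439) once the GC and length trend was removed, and old D1 against old D2 gave 1.53 (SE 0.21, edgeR adjusted p = 0.000162). Syn2 averaged 112 ± 47.8 TPM in old D1 and 99.6 ± 26.7 TPM in young D1, and Syn3 averaged 70.8 ± 64.5 TPM in old D1 and 38.8 ± 7.51 TPM in young D1, and neither passed in any comparison.

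Of the 5 SNARE proteins, Snap25 alone passed in the comparison of ages. Snap25 (ENSMUSG00000027273, chr2:136713453-136782428, plus strand) had 22253, 24895, 22580.2 and 21782 TPM in old D1 libraries and 8490.2, 10531, 13375 and 6836 TPM in young D1, against 14479.6, 11471, 11244 and 9186 TPM in old D2 and 8727, 11644, 9086 and 11620.1 TPM in young D2. The old D1 libraries lay close together and above all others. The log2 change was 1.15 (SE 0.14, edgeR adjusted p = 8.84e-05) in D1 and 0.10 (SE 0.13, edgeR adjusted p = 1.0) in D2. Their difference was 1.05 (SE 0.19, edgeR adjusted p = 0.0105), which ended in the GC-corrected fit (0.62, adjusted p = 0.075), and old D1 against old D2 gave 1.09 (SE 0.13, edgeR adjusted p = 5.76e-05).

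By edgeR the partners of Snap25 in the SNARE complex were not called with age. Vamp2 averaged 1442 ± 268 TPM in old D1 and 1712 ± 319 TPM in young D1, against 1804 ± 95.9 in old D2 and 1635.2 ± 94.2 in young D2 (SD, n = 4 each), and its log2 change of -0.24 in D1 (SE 0.18, edgeR adjusted p = 0.405) did not pass. Stx1a, the syntaxin of the cell membrane, was low: 0.30, 8.89, 7.74 and 1.52 TPM in old D1 libraries and 20.9, 21, 9.62 and 8.30 TPM in young D1, against 24.6, 12.9, 27 and 22.7 TPM in old D2 and 21, 20.4, 16.6 and 42.7 TPM in young D2. Old D1 overlapped young D1 and lay below both D2 groups. DESeq2 called it lower with age in D1 (log2 -2.24, adjusted p = 0.00651), as did edgeR without old D1 replicate 3. Its log2 change by edgeR was -2.21 with age in D1 (SE 0.76, edgeR adjusted p = 0.0692) and -2.48 for old D1 against old D2 (SE 0.77, edgeR adjusted p = 0.0481), a call lost in 18 of 23 alternative settings. Vamp1 and Snap47, a SNAP-25 relative, were not called in any comparison.

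Among the regulators of SNARE assembly, Cplx2 and Unc13c rose in old D1 neurons. Complexin 2 (Cplx2) had 1892, 2245, 1307 and 1908 TPM in old D1 libraries and 1177, 1119, 1360.4 and 940.1 TPM in young D1, against 1167, 974, 752 and 819 TPM in old D2 and 869, 986, 828 and 1259 TPM in young D2. The lowest old D1 library overlapped young D1, and all old D1 libraries were above the D2 libraries. The log2 change in D1 was 0.61 (SE 0.18, edgeR adjusted p = 0.0315), a call lost in 10 of 23 alternative settings, among them each of 3 old and 3 young D1 replicates left out in turn. Old D1 against old D2 gave 1.12 (SE 0.18, edgeR adjusted p = 0.000681), which held in all of them. Cplx1 averaged 453 ± 155 TPM in old D1 and 658 ± 159 TPM in young D1 (log2 -0.64, SE 0.22, edgeR adjusted p = 0.0663).

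Unc13c encodes Munc13-3, a priming protein best known from the cerebellum. It had 88.5, 105, 95.3 and 71 TPM in old D1 libraries and 40.7, 48.5, 38.2 and 41.9 TPM in young D1, against 36.3, 24.8, 26.5 and 25.1 TPM in old D2 and 25.6, 28.7, 18.6 and 32.2 TPM in young D2. Old D1 was above the other 12, and young D1 was above young D2. On the log2 scale the age change was 1.04 (SE 0.20, edgeR adjusted p = 0.00315) in D1 and 0.03 (edgeR adjusted p = 1.0) in D2, and the D1 call ended with the GC and length trend removed (0.54, adjusted p = 0.101). Old D1 against old D2 gave 1.77 (SE 0.21, edgeR adjusted p = 4.44e-05) and young D1 against young D2 gave 0.76 (SE 0.20, edgeR adjusted p = 0.188). Unc13a, the main Munc13 of the forebrain, averaged 30.9 ± 21.2 TPM in old D1 and 51.4 ± 19.4 TPM in young D1 (log2 -0.94, edgeR adjusted p = 0.0729), and Unc13b and Stxbp5 (tomosyn) were not called in any comparison. The leading isoform of Stxbp5, Stxbp5-211, is annotated as a processed transcript and held 47.5% on average over the 16 libraries.

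Of the 9 active zone and Rab3 members, Erc2, Bsn and Rims2 rose in old D1 neurons, Rab3a fell and 5 were not called by edgeR. ERC2 (Erc2), which binds RIM and bassoon, had 144, 146, 155 and 287 TPM in old D1 libraries and 89.6, 66.7, 92.4 and 51.4 TPM in young D1, against 89.2, 59.6, 54.2 and 81.2 TPM in old D2 and 92.9, 70.2, 63.1 and 82.9 TPM in young D2. Its old D1 values were above all others, with 1 library well above the other 3. The fitted log2 change was 1.26 (SE 0.26, edgeR adjusted p = 0.00482) in D1 and -0.22 (edgeR adjusted p = 1.0) in D2. The difference of 1.48 (SE 0.37, edgeR adjusted p = 0.0451) was lost in 14 of 22 alternative settings. Old D1 against old D2 gave 1.53 (SE 0.26, edgeR adjusted p = 0.00123), which held in all 23.

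Bassoon (Bsn), a very large scaffold protein, had 291, 309.8, 311 and 249 TPM in old D1 libraries and 105, 136, 192 and 146 TPM in young D1, against 156, 131, 114 and 65.4 TPM in old D2 and 102, 125, 115 and 114 TPM in young D2. All 4 old D1 libraries were above the other 12, which overlapped each other. The log2 change in D1 was 0.78 (SE 0.22, edgeR adjusted p = 0.0281), a call that needed young D1 replicates 1 and 2 and old D1 replicate 2. It was 1.33 (adjusted p = 0.00225) with the GC and length trend removed. Against old D2, old D1 gave 1.28 (SE 0.22, edgeR adjusted p = 0.00129), which held in all 23 alternative settings. Piccolo (Pclo), its relative, averaged 18.9 ± 8.03 TPM in old D1 and 13.6 ± 3.12 TPM in young D1 and was not called.

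The RIM proteins link Rab3 on the vesicle to Munc13 and to calcium channels. Rims1 had 72.7, 43.2, 56.2 and 179.8 TPM in old D1 libraries and 54.3, 33.4, 57.1 and 31.6 TPM in young D1, against 19.3, 31.7, 28.6 and 37.0 TPM in old D2 and 28.7, 23.5, 36.7 and 31.2 TPM in young D2. Old and young D1 overlapped, and old D1 lay above both D2 groups. Its log2 change was 0.76 with age in D1 (SE 0.28, edgeR adjusted p = 0.0918) and 1.24 for old D1 against old D2 (SE 0.29, edgeR adjusted p = 0.0103), which ended with the GC and length trend removed (adjusted p = 0.0611). Rims2 averaged 63.3 ± 20.1 TPM in old D1 and 33.0 ± 9.18 TPM in young D1 (log2 0.90, SE 0.28, edgeR adjusted p = 0.0439), a call that held in 4 of 23 alternative settings. The contrast of old D1 and old D2 gave 1.001 (SE 0.28, edgeR adjusted p = 0.0304), held in 14 of 23. Rims3 and Rimbp2 were not called.

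Rab3a, the main Rab of synaptic vesicles, had 225, 287, 309 and 526 TPM in old D1 libraries and 763, 550.1, 608 and 667 TPM in young D1, against 644, 814, 825 and 891 TPM in old D2 and 773, 709, 671 and 643 TPM in young D2. All old D1 values were below all others. The log2 change in D1 was -0.96 (SE 0.25, edgeR adjusted p = 0.0176), and -0.19 (adjusted p = 0.734) with the GC and length trend removed. The contrast of old D1 and old D2 gave -1.05 (SE 0.25, edgeR adjusted p = 0.012), and -0.46 (adjusted p = 0.327) after that removal. Rab3c averaged 372 ± 94.7 TPM in old D1 and 288 ± 95.6 TPM in young D1, against 362 ± 18.8 in old D2 and 409.6 ± 18.6 in young D2 (SD, n = 4 each), with no call.

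In the machinery that takes SNARE complexes apart, Napb and Nsf rose in old D1 neurons, and Napa was not called by edgeR. Napb encodes the adaptor beta-SNAP, found mainly in brain. The gene (ENSMUSG00000027438, chr2:148693985-148732467, minus strand) had 738, 879, 635 and 579.8 TPM in old D1 libraries and 248, 192, 322 and 189 TPM in young D1, against 280.2, 267, 260.0 and 336 TPM in old D2 and 220.0, 199, 206 and 276 TPM in young D2. Its old D1 values were above all others with no library near them. On the log2 scale the age change was 1.48 (SE 0.17, edgeR adjusted p = 8.84e-05) in D1 and 0.26 (SE 0.16, edgeR adjusted p = 1.0) in D2. The difference was 1.22 (SE 0.23, edgeR adjusted p = 0.0146), which ended after removal of the GC and length trend (0.82, adjusted p = 0.0723), and old D1 against old D2 gave 1.40 (SE 0.17, edgeR adjusted p = 4.47e-05).

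Nsf, the ATPase itself, had 612, 397, 389.5 and 1200.3 TPM in old D1 libraries and 387, 344, 353 and 117 TPM in young D1, against 476, 422, 410.5 and 665 TPM in old D2 and 499.8, 281, 303 and 475 TPM in young D2. The lowest old D1 library was just above the highest young D1 library, and both D2 groups overlapped old D1. Its log2 change in D1 was 0.80 (SE 0.21, edgeR adjusted p = 0.0179), lost in 5 of 23 alternative settings, among them the removal of young D1 replicate 4 or old D1 replicate 1. Napa (alpha-SNAP) averaged 58.9 ± 36.9 TPM in old D1 and 128 ± 39.9 TPM in young D1 (log2 -1.06, SE 0.35, edgeR adjusted p = 0.0565), and was called lower in 4 of 23 alternative settings, among them DESeq2 (adjusted p = 0.0177) and without old D1 replicate 2.

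Of the 5 endocytosis members, Sh3gl2, Dnm3 and Synj1 rose in old D1 neurons. Sh3gl2 (endophilin A1), which bends membrane and recruits synaptojanin, had 334, 262, 267 and 442 TPM in old D1 libraries and 89.6, 99.9, 142 and 67.3 TPM in young D1, against 105, 94.2, 76.2 and 91.4 TPM in old D2 and 67, 76.5, 71.2 and 84.5 TPM in young D2. All 4 old D1 libraries were above the other 12. The fitted log2 change was 1.68 (SE 0.24, edgeR adjusted p = 0.000304) in D1 and 0.20 (SE 0.23, edgeR adjusted p = 1.0) in D2. The contrast of old D1 and old D2 gave 1.98 (SE 0.24, edgeR adjusted p = 4.82e-05), and the difference of the age changes, 1.47 (SE 0.33, edgeR adjusted p = 0.0287), was lost in 11 of 22 alternative settings.

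Synj1 (synaptojanin 1), the phosphatase that strips clathrin-coated vesicles of their lipid signal, had 595, 301, 339 and 213 TPM in old D1 libraries and 193, 157, 128 and 142 TPM in young D1, against 220.1, 252, 226 and 332 TPM in old D2 and 135, 142, 113 and 157 TPM in young D2. Old was above young without overlap in both kinds, and the old D1 and old D2 groups overlapped. The age change was 1.003 (SE 0.16, edgeR adjusted p = 0.000611) in D1 and 0.77 (SE 0.16, edgeR adjusted p = 0.0879) in D2, where DESeq2, voom and the fit of the D2 groups alone called it. The difference of its age changes did not pass. The leading isoform of Synj1, Synj1-208, held 56.3% on average over the 16 libraries. Its coding length is 566 bases, against 3927 bases in the long isoform Synj1-210. The TPM of Synj1 is thus not that of the long coding isoforms alone.

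Dnm3 (dynamin 3) had 234, 224, 95.2 and 83.7 TPM in old D1 libraries and 61.3, 46.9, 46.0 and 55.8 TPM in young D1, against 71.7, 58.3, 55.4 and 110.2 TPM in old D2 and 69.1, 37.5, 42.8 and 60.2 TPM in young D2. Old D1 fell into 2 high and 2 lower libraries, all above young D1 but not above old D2. The log2 change in D1 was 1.71 (SE 0.31, edgeR adjusted p = 0.00157), and old D1 against old D2 gave 1.24 (SE 0.30, edgeR adjusted p = 0.0143). Dnm1, the main dynamin of nerve terminals, had 107, 245, 298 and 78.9 TPM in old D1 libraries and 291, 518, 380.2 and 213 TPM in young D1, against 511, 449.6, 321 and 327 TPM in old D2 and 319, 371, 369 and 415 TPM in young D2. The D1 groups overlapped, and its log2 change of -0.54 (SE 0.21, edgeR adjusted p = 0.114) did not pass. Its direction turned with the GC and length trend removed (0.62, adjusted p = 0.132), while DESeq2 called it lower (adjusted p = 0.0481). The leading isoform of Dnm1, Dnm1-211 of 899 bases, is annotated as a retained intron and held 43.5% on average over the 16 libraries. The TPM of Dnm1 is thus not that of coding mRNA alone.

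Amph (amphiphysin), which brings dynamin to the neck of the coated pit, had 75.3, 34.0, 31.7 and 46.5 TPM in old D1 libraries and 28.4, 28.5, 21.1 and 29.2 TPM in young D1, against 14.1, 26.8, 18.6 and 30 TPM in old D2 and 16.6, 18.2, 25.9 and 19.8 TPM in young D2. Its old D1 values were above all others by a narrow gap. On the log2 scale the age change was 0.71 with age in D1 (SE 0.36, edgeR adjusted p = 0.211) and 1.2 for old D1 against old D2 (SE 0.36, edgeR adjusted p = 0.0422), a call lost in 17 of 23 alternative settings.

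Within several families the shares of paralogs in old D1 did not overlap those in young D1. These families were described after their values were seen, and their shares of TPM were not tested. The shares were also not corrected for the GC trend described below. GC content of the most abundant isoform was 43.9% for Napb and 54.9% for Napa, and 45.4% for Unc13c and 55.1% for Unc13a. It was 44.5% for Dnm3 and 59.6% for Dnm1, and 47.8% for Sv2c, 54.2% for Sv2a and 45.8% for Sv2b. Napb made up 93.6, 89.3, 90.9 and 97.3% of the summed TPM of Napa and Napb in old D1 libraries and 67.02, 59.7, 64.3 and 69.7% in young D1, against 75.7 to 79.3% in old D2 and 62.7 to 70.5% in young D2. The 4 groups thus ranked old D1, old D2 and then the overlapping young groups. Unc13c made up 83.6, 67.7, 65.1 and 79.4% of the 3 Munc13 genes in old D1 and 40.9, 38.3, 43.2 and 57.4% in young D1, against 29.7 to 41.8% in old D2 and 27.8 to 48.6% in young D2. Dnm3 made up 24.2 to 68.7% of both dynamin members in old D1 and 8.30 to 20.8% in young D1, against 11.5 to 25.2% in old D2 and 9.18 to 17.8% in young D2, so that its lowest old D1 library overlapped old D2.

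Sv2c held 26.0 to 59.8% of the 3 SV2 genes in old D1 and 15.7 to 21.6% in young D1, against 25.3 to 27.8% in old D2 and 13.3 to 26.8% in young D2, so that old D1 overlapped both D2 groups. Sv2a held 5.84 to 12.6% in old D1 and 16.9 to 33.0% in young D1, against 23.6 to 44.4% in old D2 and 25.03 to 52.8% in young D2. Rab3c held 32.2 to 65.9% of Rab3a and Rab3c in old D1 and 24.04 to 39.4% in young D1, against 28.0 to 35.7% in old D2 and 35.9 to 39.2% in young D2, with overlap. Cplx2 held 67.6 to 86.8% of the complexin pair in old D1 and 59.3 to 70.7% in young D1, also with overlap, against 58.0 to 63.7% in old D2 and 62.3 to 67.4% in young D2. Of the 5 synaptotagmin members, Syt1 held 36.6 to 41.4% in old D1 and 32.8 to 35.3% in young D1, against 33.1 to 39.8% in old D2 and 37.2 to 38.4% in young D2. Syt4 held 14.2 to 30.5% in old D1 and 8.08 to 12.5% in young D1, against 11.04 to 16.5% in old D2 and 6.18 to 11.6% in young D2. For Syt1 both D2 groups, and for Syt4 old D2, overlapped old D1.

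**Figure D3:**
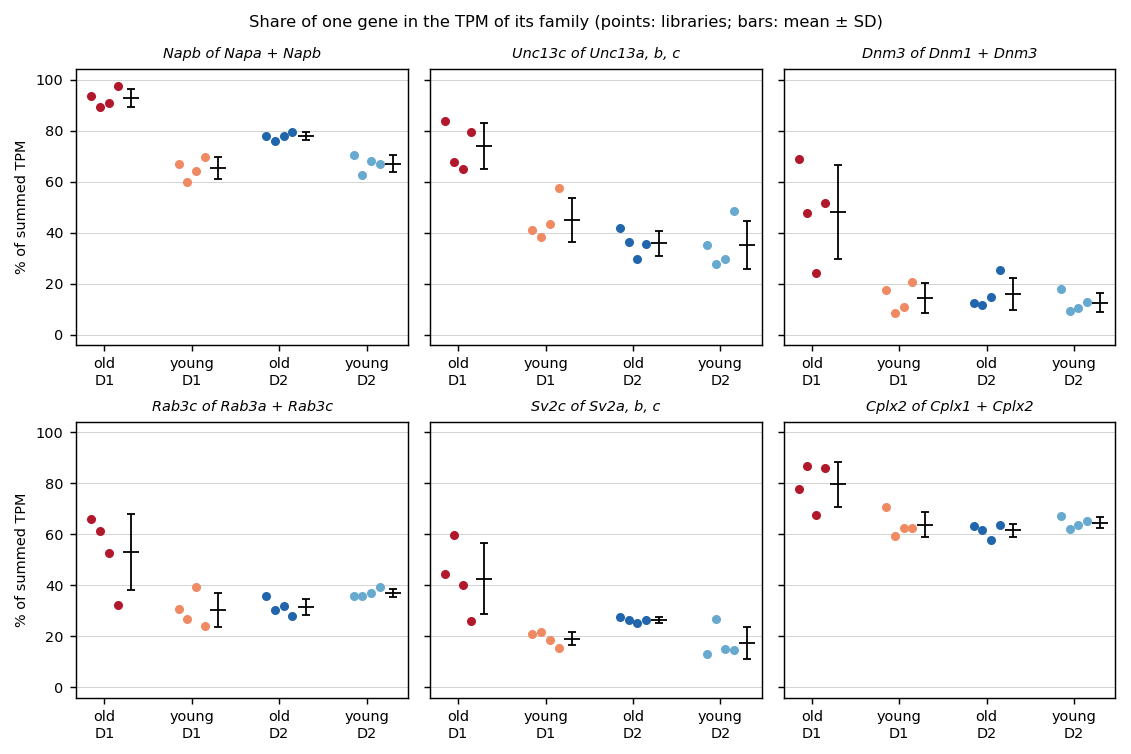
Share of 1 gene in the summed TPM of the listed members of its family, in percent, for 6 families. Points are the 4 libraries of each group and black bars are the mean ± SD. The Napb share was 89.3 to 97.3% in old D1 and 59.7 to 69.7% in young D1.

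GC content went along with the size and sign of the age change in D1. The most abundant isoforms of the 15 members that were higher in old D1 had a median GC content of 46.3%, those of the 3 lower members 56.4% and those of the 22 members not called 52.9%, while the median of all genes tested was 49.97%. Members higher in old D1 also spanned longer genes, with a median of 132275 bases, against 14371 bases for those that were lower and 55716 bases for those not called. Over all genes the median span was 46791 bases for those higher in old D1, 13028 bases for those lower and 23200 bases for all tested. All genes higher and lower in old D1 had median GC contents of 45.2 and 56.0%. As a description over genes, Spearman's rho between GC content and the D1 age change was -0.59 over the 40 members and -0.34 over 13821 genes with a known GC content. In D2 it was -0.15 over the members and -0.0045 over those genes. These genes share the same 8 D1 or 8 D2 libraries, whose fragment lengths differ as given above.

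With the GC and length trend removed from each library, rho for the D1 age change was -0.13 over the members and -0.0085 over all genes, and 14 members passed, 13 higher and 1 lower, among 804 of all 13926 genes. Of the 18 original calls 13 held. Syt1, Unc13c, Rims2, Sv2a and Rab3a were lost and Syt5 was gained (log2 1.29, adjusted p = 0.0387). Syn1 and Bsn, both rich in GC, were larger after the removal, while Snap25 was 0.77 and Napb 1.03 on the log2 scale, below their original values. None of the 18 calls changed sign.

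**Figure D4:**
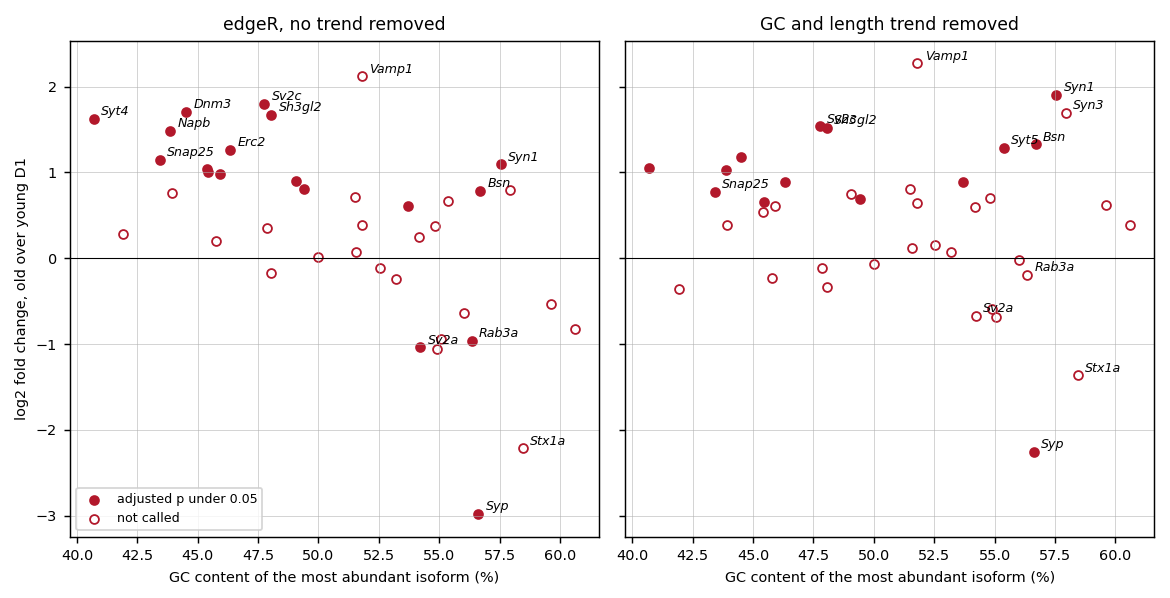
Log2 change of old over young D1 of the 40 members against the GC content of the most abundant isoform in percent, without (left) and with (right) the GC and length trend removed. Filled points passed at an adjusted p under 0.05. The slope seen on the left (rho -0.59) is mostly gone on the right (rho -0.13), where Syp, Sv2c and Sh3gl2 remain far from 0 and Rab3a moves to near 0.

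Isoforms were compared as the share of each transcript in its gene, which RSEM estimates from the fragments. The files list 190 isoforms of the 40 members, and 74 isoforms of 27 members could be tested. In 13 members 1 isoform held over 95% of the gene. Changes in share are given on a log2 odds scale, tested with limma over 16841 isoforms. The 19 alternative settings for isoforms changed the offset, the scale or the TPM filter, or left out 1 library. None of them removed the GC and length trend or fitted the compared groups alone. With age, 2 of the 74 member isoforms passed in D1 (5.02% of all isoforms tested passed) and 0 in D2 (0.0119%; 3 at an unadjusted p under 0.05). The contrast of old D1 and old D2 gave 3 of 74 (6.67% of all), and young D1 against young D2 gave 0 (0.0% of all; 3 at an unadjusted p under 0.05). The member isoforms that passed were 2.703% with age in D1 and 4.05% for old D1 against old D2, below the shares of all isoforms.

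Syt11, a synaptotagmin that does not bind calcium, had a shifted isoform share in old D1. Syt11-201 held 8.18, 43.7, 13.0 and 41.5% in old D1 libraries and 98.4, 96.4, 86.0 and 100.0% in young D1, against 65.3 to 100.0% in old D2 and 45.4 to 92.2% in young D2. Old D1 was below all others, and old and young D2 overlapped. The shift in D1 was -6.42 (SE 1.35, limma adjusted p = 0.0173), lost without young D1 replicate 1. Syt11-202, with a coding length of 372 bases against 1290 bases, held 60.7 ± 16.1% in old D1 and 4.10 ± 6.64% in young D1 (SD, n = 4 each; shift 5.78, SE 1.499, limma adjusted p = 0.0404), a call lost in 11 of 19 alternative settings. The gene as a whole had 189.7 ± 23.1 TPM in old D1 and 139 ± 22.4 TPM in young D1, while its log2 change in counts, which are not per length, was 0.01 (SE 0.24, edgeR adjusted p = 0.982).

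Napb had 2 isoforms of note. Napb-201 is annotated as protein coding, and Napb-202 is annotated as a target of nonsense-mediated decay, the pathway that removes mRNAs with an early stop. Napb-202 lacks an exon of 47 bases at chr2:148707159-148707205 (GRCm38, minus strand), shown here as part of the difference between the isoforms. Napb-201 has 4412 bases and Napb-202 has 4311 bases, so bases outside this exon differ as well. The coding length is 345 bases in Napb-202 and 894 bases in Napb-201.
Napb exon absent from Napb-202: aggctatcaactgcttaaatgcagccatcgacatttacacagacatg

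The share of Napb-202 was 81.5, 68.5, 70.5 and 75.0% in old D1 libraries and 28.1, 38.8, 56.3 and 35.4% in young D1, against 10.3, 10.46, 17.9 and 12.2% in old D2 and 61.6, 40.2, 45.0 and 31.5% in young D2. Its old D1 values were above all others and old D2 below all others. The shift of Napb-202 for old D1 against old D2 was 4.21 (SE 0.68, limma adjusted p = 0.0029) and that of Napb-201 was -4.25 (SE 0.68, limma adjusted p = 0.00282). Both held in all 19 alternative settings for isoforms, which did not include removal of the GC and length trend. With age, Napb-202 shifted by 2.10 in D1 (limma adjusted p = 0.0898) and by -2.40 in D2 (limma adjusted p = 0.872), and neither passed. In TPM, Napb-202 averaged 521.5 ± 92.7 in old D1 and 98.2 ± 55.7 in young D1, and Napb-201 averaged 182 ± 68.3 in old D1 and 139.6 ± 27.6 in young D1 (SD, n = 4 each).

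Synj1-210, a long isoform with 33 exons and a coding length of 3927 bases, held 1.55, 3.45, 0.02 and 0.0% in old D1 libraries, against 19.8, 18.3, 18.9 and 22.5% in old D2. It held 4.78 to 24.04% in young D1 and 15.7 to 19.4% in young D2. Old D1 was below all others, and the shift for old D1 against old D2 was -3.79 (SE 0.76, limma adjusted p = 0.01). It held in all 19 alternative settings for isoforms, again without removal of the GC and length trend. The leading isoform of the gene was Synj1-208, of 8 exons and a coding length of 566 bases. It held 69.8 ± 22.5% in old D1 and 39.6 ± 21.2% in young D1, against 58.5 ± 12.3% in old D2 and 57.3 ± 7.98% in young D2 (SD, n = 4 each). In TPM, Synj1-208 averaged 226 ± 40.2 in old D1 and 60.5 ± 30.6 in young D1. Synj1-210 averaged 4.92 ± 5.66 TPM in old D1 and 18.8 ± 13.4 in young D1. The long Synj1-203 averaged 41.8 ± 6.95 TPM in old D1 and 25.4 ± 11.5 in young D1. These isoform levels were not tested.

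Snap25 has a pair of alternative exons of equal length that are known to switch during brain development. They are shown because the largest member by level is spliced between them, with capitals at the 31 of 118 bases at which they differ (73.7% identity). The upstream exon lies at chr2:136769743-136769860 and the downstream exon at chr2:136770057-136770174 (GRCm38, plus strand).
Snap25-202, upstream exon: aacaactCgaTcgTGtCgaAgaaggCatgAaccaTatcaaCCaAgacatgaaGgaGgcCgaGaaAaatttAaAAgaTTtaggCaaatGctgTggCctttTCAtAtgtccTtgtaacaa
Snap25-201, downstream exon: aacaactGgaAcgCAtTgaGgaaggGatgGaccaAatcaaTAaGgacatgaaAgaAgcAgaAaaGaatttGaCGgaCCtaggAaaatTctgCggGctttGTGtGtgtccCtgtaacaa

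The isoforms also differ outside this exon pair: Snap25-201 has 2116 bases and Snap25-202 has 1014 bases, with 896 bases shared. Their shares are therefore not a measure of the exon pair alone. The upstream-exon isoform Snap25-202 held 31.5, 34.2, 42.4 and 11.3% in old D1 libraries and 15.2, 40.6, 35.8 and 10.8% in young D1, against 42.5, 31.4, 22.2 and 1.53% in old D2 and 24.3, 31.6, 24.5 and 30.4% in young D2. All groups overlapped, and no comparison of its share passed (limma adjusted p = 0.91 with age in D1 and 0.685 for old D1 against old D2). Snap25-201 had 13003 to 19320 TPM in old D1 and 6098 to 8587 TPM in young D1, without overlap. Snap25-202 had 2461 to 9577 TPM in old D1 and 738.5 to 4787 TPM in young D1, with overlap, and these isoform levels were not tested.

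**Figure D5:**
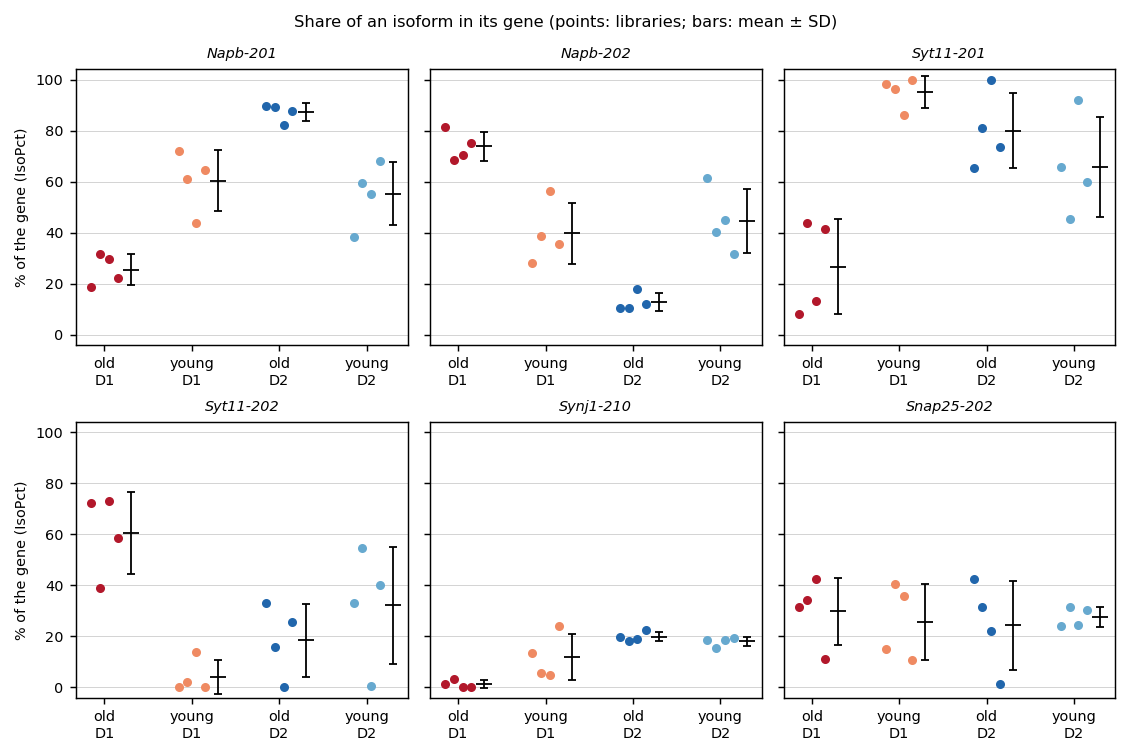
Share of 6 isoforms in their genes in percent (IsoPct of RSEM). Points are the 4 libraries of each group and black bars are the mean ± SD. Napb-202 was highest in old D1 and lowest in old D2, Syt11-201 and Synj1-210 were lowest in old D1, and Snap25-202 overlapped in all groups.

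Promoters were read because many members moved together in old D1. RefSeq (GRCm38.p6) gave 40 promoters of 33 members, and the 250 bases before each start were searched on both strands. The GC box GGGCGG, a binding motif of Sp1, was found in 55.0% of these promoters, against 32.7% of 32851 promoters of all genes, and the median GC content was 61.0 and 52.4%. The cAMP response element TGACGTCA was found in 2 members, Sh3gl2 and Syn1 (5.0%, against 1.5% of all), and TTCAGCACC, the left part of the RE1 motif, in 1 member, Syn1 (2.5%, against 0.3% of all). None of these 3 motifs contains another, and a match describes the sequence only. Of the members higher in old D1, Sv2c, Unc13c, Syt1, Synj1 and Sh3gl2 had a GC box in a promoter. Syn1, Cplx2, Bsn, Erc2, Nsf, Napb and Dnm3, also higher, had none. The members lower in old D1, Syp, Sv2a and Rab3a, had a GC box too. The promoters of Sv2c and Unc13c, both higher in old D1, are shown with GC boxes on either strand in capitals. They lie at chr13:96132578-96132827 and chr9:73969038-73969287, both on the minus strand.
Sv2c: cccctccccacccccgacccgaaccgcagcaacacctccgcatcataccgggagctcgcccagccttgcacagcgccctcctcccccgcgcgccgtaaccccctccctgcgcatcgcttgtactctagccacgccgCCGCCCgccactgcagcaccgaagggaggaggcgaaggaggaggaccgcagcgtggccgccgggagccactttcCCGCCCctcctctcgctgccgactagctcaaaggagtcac
Unc13c: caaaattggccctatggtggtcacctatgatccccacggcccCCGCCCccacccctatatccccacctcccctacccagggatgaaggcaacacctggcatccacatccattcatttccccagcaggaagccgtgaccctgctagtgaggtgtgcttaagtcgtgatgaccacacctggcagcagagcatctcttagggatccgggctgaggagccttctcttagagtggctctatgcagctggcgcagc

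Other genes of the vesicle pathway, 93 on a list drawn up beside the members, were counted in the same way. Of the 89 tested, 6 were higher and 7 lower in old than in young D1 (14.6%, against 10.8% of all genes tested), with a median log2 change of -0.06, and none passed in D2. Of the genes named below, Syt6, Sypl, Vamp4, Stxbp5l, Lin7a, Rab3d, Itsn2 and Pip5k1c were not called with age when the D1 libraries were fitted alone. The largest share was in endocytosis, with 2 higher and 4 lower of 22. Snap91 (AP180), a clathrin adaptor, averaged 181 ± 55.8 TPM in old D1 and 65.5 ± 21.5 TPM in young D1 (log2 1.39, SE 0.27, edgeR adjusted p = 0.0026), a call that held in all 23 alternative settings. Itsn2 (intersectin 2) was also higher (log2 0.998, SE 0.31, edgeR adjusted p = 0.0422), though in 5 of 23 alternative settings only.

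Endophilin A2 (Sh3gl1), a paralog of Sh3gl2, went the other way: it averaged 0.04 ± 0.08 TPM in old D1 and 18.2 ± 12.5 TPM in young D1, against 10.1 ± 6.15 in old D2 and 15.99 ± 11.6 in young D2 (SD, n = 4 each). It was called lower with age in D1 (edgeR adjusted p = 0.000711), in the difference of the age changes (edgeR adjusted p = 0.0182) and for old D1 against old D2 (edgeR adjusted p = 0.00152). All 3 of these calls ended under voom with library weights, that of the difference also on log2(TPM + 1) and without young D2 replicate 2, and that of old D1 against old D2 also with the compared groups alone. Pip5k1c, a lipid kinase of endocytosis, averaged 20.9 ± 10.01 TPM in old D1 and 53.3 ± 13.0 TPM in young D1 (log2 -1.51, SE 0.35, edgeR adjusted p = 0.00985), and -0.66 (adjusted p = 0.253) with the GC and length trend removed. Ston2 (stonin 2) was listed at 0 in all old D1 libraries and averaged 4.83 ± 5.74 TPM in young D1 (edgeR adjusted p = 0.0109). Rab3d averaged 0.04 ± 0.08 TPM in old D1 and 2.86 ± 3.68 TPM in young D1 (SD, n = 4 each), and its call (edgeR adjusted p = 0.0445) held in 5 of 23 alternative settings.

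Among other SNAREs and their regulators Vamp4 and Stxbp5l were higher. Vamp4, a SNARE of bulk endocytosis and asynchronous release, averaged 289 ± 36.1 TPM in old D1 and 148 ± 24.5 TPM in young D1 (log2 1.02, SE 0.24, edgeR adjusted p = 0.0106), a call that ended with the GC and length trend removed (adjusted p = 0.176). Stxbp5l, a second tomosyn gene, gave 1.52 (SE 0.40, edgeR adjusted p = 0.0186), and the scaffold gene Lin7a 1.05 (SE 0.30, edgeR adjusted p = 0.0285), and both also ended there.

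Syt6 was lower in old D1 (log2 -0.67, SE 0.16, edgeR adjusted p = 0.0104) at 111 ± 42.2 TPM, against 134 ± 14.5 TPM in young D1. Sypl, a relative of synaptophysin, was higher at 29.7 ± 18.7 TPM in old D1 and 5.94 ± 3.86 TPM in young D1 (log2 2.43, SE 0.70, edgeR adjusted p = 0.0311), and this call ended with the GC and length trend removed (adjusted p = 0.123). The contrast of old D1 and old D2 gave 5 higher and 4 lower of the 89 (10.1%, against 9.6% of all genes tested), among them Syt10 (log2 3.34, SE 0.93, edgeR adjusted p = 0.0291) and Rab27b (log2 1.08, SE 0.33, edgeR adjusted p = 0.0441) higher, the Rab27b call in 5 of 23 alternative settings only. The adaptor subunit Ap2a1 was called lower in counts (log2 -1.5, SE 0.39, edgeR adjusted p = 0.0191), which ended with the GC and length trend removed (-0.59, adjusted p = 0.438), while its mean TPM was 56.0 ± 51.8 in old D1 and 46.2 ± 19.6 in old D2.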

How the data were processed

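Ribosome-bound mRNA of 16 libraries was analysed. Per the submitters' processing notes, reads were aligned with STAR 2.5.1b to mm10 and quantified with RSEM 1.2.20. Which annotation release, trimming or strandedness was used is not stated in these sources. Per the file headers, the authors deposited expected counts, TPM, FPKM (not used) and the percent of each isoform in its gene (IsoPct). RSEM divides fragments shared by paralogs or isoforms by a model, so such values are estimates. As strandedness is not stated, it is not known whether reads of overlapping antisense genes could be told apart. Names came from GENCODE M21, which matched 37693 of 39017 genes. Expected counts were rounded and fitted with edgeR 4.0.16 (filterByExpr, TMM, robust quasi-likelihood, 1 mean per group over all 16 libraries), with Benjamini-Hochberg adjustment over 13926 genes and a threshold of 0.05. Isoform shares were tested with limma 3.58.1 on log2 odds with an offset of 1 percentage point. Alternatives for genes used DESeq2 1.42.0, voom, log2(TPM + 1), other filters and size factors, a trend over GC content and length (mgcv 1.9.3), and each library left out. Those for isoforms changed the offset, scale or TPM filter, or left out each library. The fits were tested on simulated data. The design text calls the libraries biological replicates. By rule, values in every library were given for called members, up to 3 per role and comparison by smallest adjusted p, and for the member of each role with the highest mean TPM. Of other pathway genes up to 3 called per direction, list and comparison were named, and of isoforms the called ones, up to 6 per comparison, with their genes' leading isoforms. A pathway gene that this rule names is not reported here. The members and lists were chosen with earlier results of these data known.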

Additional observations from a re-analysis of the deposited data

Results flagged for a closer look

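In 22 of 160 groups of 4 values of member TPM, and in 3 of 40 groups of isoform shares, 1 library lay far from the other 3. For independent, normally distributed values chance alone gives this in about 5% of groups. TPM and shares were used untransformed, and isoform shares of 1 gene depend on each other. The number of flags was therefore not tested against that rate. In old D1 these were Syt4 at 323 and Sv2c at 189.8 TPM in replicate 2, Vamp1 at 153 TPM in replicate 2, Stxbp5 at 129 TPM in replicate 3, and Sv2b at 220.0 and Erc2 at 287 TPM in replicate 4. In young D1 they were Syn3 at 27.6 TPM in replicate 2, Syt1 at 251, Syt5 at 200.4 and Amph at 21.1 TPM in replicate 3, and Snap47 at 27.6 and Nsf at 117 TPM in replicate 4. In old D2 they were Syt7 at 110.6 and Unc13c at 36.3 TPM in replicate 1, and Syp at 202 TPM, Syn3 at 105 TPM and Unc13b at 26.7 TPM in replicate 4. In young D2 they were Unc13b at 28.5 TPM in replicate 2, Sv2b at 30.4 and Rims3 at 25.9 TPM in replicate 3, and Syn2 at 154 and Stx1a at 42.7 TPM in replicate 4. Among isoforms, old D1 replicate 1 held 52.4% Synj1-204 and 36.1% Synj1-208, and young D1 replicate 3 held 13.9% Syt11-202.

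The age change differed between D1 and D2 neurons by edgeR's test of the difference itself for Snap25 (1.05 on the log2 scale), Napb (1.22), Sh3gl2 (1.47), Erc2 (1.48) and Syp (-3.40). None of these calls held in all alternative settings, and none held with the GC and length trend removed.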

How the results depend on the processing

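No paired analysis was possible because the replicate numbers were given in accession order and pair no libraries. No call of a member changed sign under any alternative. With age in D1, 1508 genes passed, against 2929 by DESeq2, 305 with only the compared groups, 547 by voom, 804 after removal of the GC and length trend and 909 to 2055 with 1 library left out; of members 18 passed (15 higher, 3 lower), against 24 by DESeq2 (16 and 8), 10 with only the compared groups and 13 to 21 with 1 library left out. With age in D2, 11 genes passed, against 182 by DESeq2, 39 with only the compared groups, 167 by voom and 5 to 18 with 1 library left out; members numbered 0, against 1 by DESeq2, 1 with only the compared groups, 2 by voom and 0 to 1 with 1 library left out. For the difference of the age changes 246 genes passed, against 1227 by DESeq2, 86 with the trend removed and 66 to 656 with 1 library left out, and 5 members, against 9 by DESeq2, 3 on log2(TPM + 1), 2 with the trend removed and 2 to 8 with 1 library left out. For D1 against D2 in young mice 57 genes passed, against 271 by DESeq2, 98 with only the compared groups, 203 by voom and 40 to 90 with 1 library left out, and 0 members, against 1 by DESeq2, 1 with only the compared groups, 2 by voom, 1 with the trend removed and 0 to 1 with 1 library left out. In old mice 1337 genes passed, against 2769 by DESeq2, 354 with only the compared groups, 655 by voom, 889 with the trend removed and 692 to 1873 with 1 library left out, and 19 members, against 11 with only the compared groups and 14 to 19 with 1 library left out. Of member isoforms 2 passed with age in D1, against 4 with an offset of 0.5, 6 with a gene TPM of at least 1 and 0 to 4 with 1 library left out, and 3 for D1 against D2 in old mice, against 3 to 4. The causes were not tested.

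In old against young D1, 9 of 18 calls held in all 23 alternatives (Syt4, Syp, Sv2c, Syn1, Snap25, Napb, Dnm3, Synj1 and Sh3gl2), and in old D1 against old D2, 11 of 19 did. The share of higher calls shifted with the test and unit: old D1 against old D2 gave 699 higher and 638 lower, against 713 and 667 with only the size factors changed (RLE), 471 and 184 by voom and 481 and 1109 on log2(TPM + 1), and the difference of the age changes gave 129 and 117, against 111 and 114 with RLE, 140 and 42 by voom and 66 and 124 on log2(TPM + 1). Under voom the median log2 change of all genes was -0.38 with age in D1, against -0.06. Variation between libraries (biological coefficient of variation 97.8%) limits what 4 libraries a group can show, most of all for members below 20 TPM.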
